A study of Mus musculus with 6 samples.

Results

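The genes described here are 34 genes that mark or serve the endothelium of islet vessels, the cells that line the capillaries of the islets of Langerhans. They were chosen by name, each with at least 1 probe set that carries only its symbol, and all 34 of 34 were measured among 18193 genes in all. Whole islets of 12-week-old male C57Bl6 mice were hybridized, 1 sample per array. The 3 Flox arrays hold islets of floxed control mice, and the 3 Tead1KO arrays hold islets of mice that lack Tead1 in beta cells only. The labels give no Cre driver for either group, so an effect of a Cre transgene cannot be told apart from that of Tead1. They do not say how many mice each sample came from. Should samples of 1 group share mice, the tests reflect the spread of these arrays alone, which could then be technical. Endothelial cells are not the deleted cell type, and an islet sample mixes them with endocrine, stromal and immune cells.

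Islet capillaries are dense and fenestrated. Beta cells secrete Vegfa, which acts on the receptors Kdr and Flt1 of the endothelium, and angiopoietins act on the receptor Tek, with Tie1 as its partner. Ets and Sox factors such as Erg and Sox17 maintain the endothelial programme, and the endothelium in turn lays down basement membrane and regulates blood flow. Several of the 34 genes also have other sources: Ece1 is made by many cell types, Nrp1 and Ednrb also by neural and glial cells, and Podxl also by some epithelia.

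Of the 34 endothelial genes, 0 changed between Tead1KO and Flox islets (limma adjusted p under 0.05), where 0.517% of all genes did. The unadjusted limma p was under 0.05 for 0 of the 34 and for 7.41% of all genes. The median log2 difference, Tead1KO minus Flox, was -0.04, beside -0.01 over all genes, and 16 of the 34 lay above 0. The differences ran from -0.85 for Ramp2, a coreceptor for adrenomedullin, to 0.21 for Calcrl, the receptor it pairs with. The 95% interval of the difference lay within 1 log2 unit, a 2-fold change, on both sides for 29 of the 34 genes, as it did for 86.3% of all genes. It reached past that line for Ramp2, Cd34, Sox18, Mmrn2 and Tie1. For 14 of the 34 genes it lay within 0.5 log2 units on both sides. For the others the interval does not exclude a change of that size. In whole islets, fewer endothelial cells and less RNA per endothelial cell cannot be told apart.

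**Figure D1:**
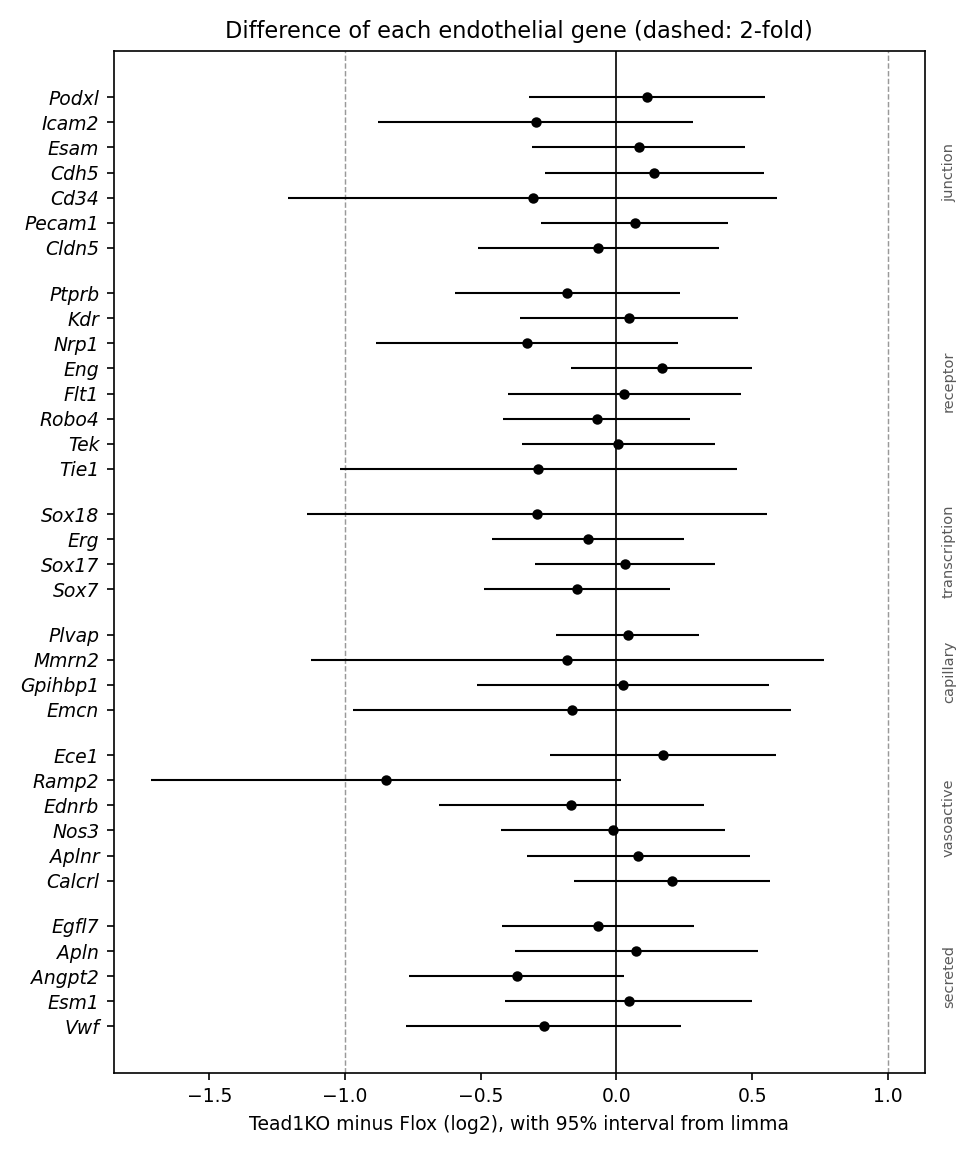
Difference of each of the 34 endothelial genes (x axis, Tead1KO minus Flox, log2), grouped by role; points are estimates, bars are 95% intervals from limma and dashed lines mark 2-fold. All intervals cover 0, and that of Ramp2 (-1.72 to 0.02) lies farthest to the left.

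The arrays differed in quality, and Tead1KO replicate 3 stood apart. Its mean correlation over probe sets with the other arrays was 0.969, against 0.984 to 0.986 for those. It had the narrowest interquartile range, 2.65 log2 units against 2.99 to 3.32, and the highest hybridization controls, 13.2 against 10.6 to 12.1. The brightest Tead1 probe set read 7.22, 6.99 and 7.40 in Flox and 6.72, 7.49 and 5.95 in Tead1KO (limma adjusted p = 0.774). The groups overlap for Tead1, and no source used here places this probe set relative to the deleted part, so it does not check the labels. Digestive enzyme transcripts of acinar cells varied widely within both groups. The mean log2 signal of 8 acinar genes was 12.24, 14.10 and 14.37 in Flox and 12.37, 14.28 and 13.53 in Tead1KO replicates 1 to 3.

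The 27 probe sets for Bacillus control transcripts read between 2.87 and 4.70 on all arrays. From these low signals they were taken as unspiked, and 4.70 serves here as the upper end of the background. Both group means lay above it for 32 of the 34 genes. Sox7 and Tie1 had a Tead1KO mean within it and a Flox mean just above it. The probe set signals of different genes are not comparable, so single values are compared only within a gene. Sums and means over a list are compared only between arrays.

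Promoter sequences, the 250 bases before the gene's start, are shown for 3 of the genes, a VEGF receptor, an angiopoietin receptor and an Ets factor, because each holds a motif of a factor family that matters here. They come from the set of RefSeq promoters used here (GRCm38.p6), which held 17 of the 34 genes, with 24 promoters. Capitals mark the motif, searched on both strands: CCGGAA for Ets factors in Kdr, ACAAAG for Sox factors in Tek, and GGAATG, the core that TEAD factors bind, in 1 of the Erg promoters. The Kdr promoter lies on the minus strand at chr5:75978456-75978705, that of Tek on the plus strand at chr4:94739039-94739288, and that of Erg on the minus strand at chr16:95530366-95530615.
Kdr: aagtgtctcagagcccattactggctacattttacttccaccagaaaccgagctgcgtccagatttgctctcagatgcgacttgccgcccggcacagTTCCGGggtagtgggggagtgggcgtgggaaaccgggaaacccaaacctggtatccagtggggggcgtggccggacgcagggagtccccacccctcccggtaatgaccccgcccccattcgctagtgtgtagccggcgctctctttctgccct
Tek: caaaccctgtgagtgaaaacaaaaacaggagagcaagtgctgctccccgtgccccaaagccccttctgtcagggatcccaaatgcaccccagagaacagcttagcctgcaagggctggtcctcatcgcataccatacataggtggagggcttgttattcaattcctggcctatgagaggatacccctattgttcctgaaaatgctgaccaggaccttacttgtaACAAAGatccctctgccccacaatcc
Erg: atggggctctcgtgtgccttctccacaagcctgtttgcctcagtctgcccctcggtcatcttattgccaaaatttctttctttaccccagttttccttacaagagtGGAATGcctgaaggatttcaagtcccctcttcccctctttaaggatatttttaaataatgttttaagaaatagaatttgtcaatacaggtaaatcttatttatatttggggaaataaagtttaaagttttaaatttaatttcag
The Ets letters stood in 1 of the 24 promoters (Kdr), against 12.0% of all 32851 promoters in the table. The TEAD letters stood in 1 of the 24 (Erg), against 12.6% of all. The Sox letters stood in 4 of the 24, those of Apln, Egfl7, Eng and Tek, against 16.5% of all. The Ets and TEAD motifs share the letters GGAA and can overlap, and a match is a description of the sequence only.

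The receptors for vascular growth factors did not pass the test. Kdr, the main signalling receptor for Vegfa, read 9.46, 8.99 and 9.20 in Flox and 9.40, 9.15 and 9.25 in Tead1KO. The 3 Tead1KO values lie inside the Flox range (log2 difference 0.05, 95% interval -0.35 to 0.45, limma adjusted p = 0.946). Flt1, which binds Vegfa with high affinity and limits its signal, read 8.10, 7.68 and 8.03 in Flox and 8.11, 8.04 and 7.75 in Tead1KO. Its difference was 0.03 (interval -0.40 to 0.46), and its other probe sets differed by -0.29, -0.23 and 0.16. Nrp1, a coreceptor for Vegfa and semaphorins, read 9.25, 8.74 and 8.98 in Flox and 8.92, 8.88 and 8.18 in Tead1KO. Only Tead1KO replicate 3 lay below every Flox array, and the difference of -0.33 (interval -0.89 to 0.23) did not pass. Of the further Nrp1 probe sets, the brighter pair differed by -0.15 and -0.22 and a dim one by 0.59.

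The angiopoietin receptor Tek had the third narrowest range of the 34 genes, after Plvap and Robo4. It read 7.55, 7.31 and 7.44 in Flox and 7.37, 7.53 and 7.41 in Tead1KO, and all 6 values span 0.24 log2 units. The groups overlap (difference 0.01, interval -0.35 to 0.36, limma adjusted p = 0.989). Tie1 read 4.60, 5.25 and 4.86 in Flox and 4.39, 5.34 and 4.12 in Tead1KO. Both groups straddle the background, so its difference of -0.29 (interval -1.02 to 0.44) says little about the transcript. Ptprb, a phosphatase that restrains Tek, read 9.39 ± 0.22 in Flox and 9.21 ± 0.19 in Tead1KO (SD, n = 3 each, difference -0.18). Robo4, a guidance receptor that stabilises vessels, differed by -0.07 (interval -0.42 to 0.27).

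Eng, a coreceptor for TGF-beta family ligands, was the 1 gene of the 34 whose Tead1KO arrays all lay above its Flox arrays. It read 7.98, 7.98 and 7.96 in Flox and 8.15, 8.06 and 8.20 in Tead1KO, so the groups do not overlap. The difference was 0.17 (SE 0.14, limma adjusted p = 0.791, exact permutation p = 0.1, two-sided, which is the smallest that 3 arrays against 3 can give). The second Eng probe set differed by 0.06, with the lowest and the highest of its 6 values both in Tead1KO arrays. Of all genes, 5.8% had Tead1KO arrays that all lay above the Flox arrays, 7.27% had them all below, and 13.1% had either. Among the 34, 3 had either: Eng above, and Ramp2 and Angpt2 below.

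**Figure D2:**
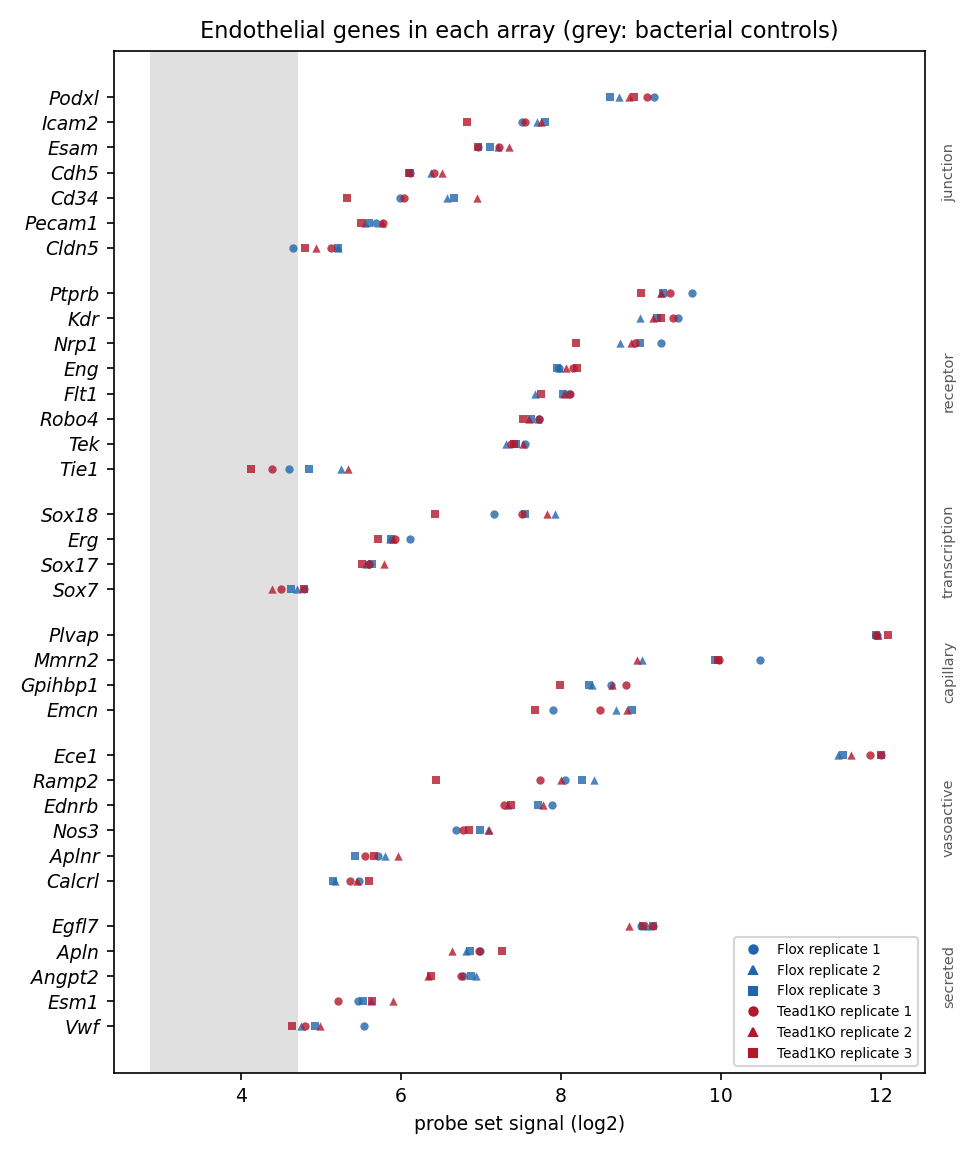
Probe set signal (log2, x axis) of the 34 endothelial genes, grouped by role; each point is 1 array, blue for Flox and red for Tead1KO, with the symbol giving the replicate, and grey shading covers the values of the bacterial controls (2.87 to 4.70). The groups overlap for all but Eng, Ramp2 and Angpt2, and the lowest point of Ramp2, Sox18, Cd34, Icam2 and Nrp1 is Tead1KO replicate 3 (red square).

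Genes of endothelial junctions and of the cell surface showed no difference past the test. Pecam1, an adhesion molecule of endothelial contacts, read 5.69, 5.55 and 5.60 in Flox and 5.77, 5.77 and 5.50 in Tead1KO. Its Tead1KO arrays hold both the highest and the lowest of the 6 values (difference 0.07, interval -0.28 to 0.41). Cdh5, the cadherin of endothelial adherens junctions, read 6.12, 6.38 and 6.12 in Flox and 6.42, 6.51 and 6.10 in Tead1KO. Replicates 1 and 2 of Tead1KO lay above every Flox array and replicate 3 below, with a difference of 0.14 (interval -0.26 to 0.54). Esam, another adhesion molecule of endothelial junctions, differed by 0.08, and Cldn5, a tight junction claudin near the background, by -0.07. Podxl, a sialomucin of the luminal surface, read 8.83 ± 0.29 in Flox and 8.95 ± 0.12 in Tead1KO (SD, n = 3 each).

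Cd34 and Icam2 differed more between the Tead1KO arrays than between the groups. Cd34, a sialomucin of capillary and progenitor cells, read 5.98, 6.58 and 6.67 in Flox and 6.04, 6.95 and 5.32 in Tead1KO. Tead1KO replicate 2 was the highest of the 6 arrays and replicate 3 the lowest, 1.63 log2 units apart, while the group difference was -0.31 (interval -1.21 to 0.59). Icam2, a leukocyte ligand on resting endothelium, read 7.52, 7.71 and 7.80 in Flox and 7.55, 7.75 and 6.83 in Tead1KO. Only Tead1KO replicate 3 lay below the Flox range, and the difference of -0.30 was -0.02 without that array.

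The 4 transcription factors did not pass the test either. Sox18, a factor of developing blood and lymphatic vessels, read 7.17, 7.93 and 7.56 in Flox and 7.52, 7.83 and 6.43 in Tead1KO. Replicate 3 of Tead1KO was again the lowest, and replicates 1 and 2 lay within the Flox range (difference -0.29, interval -1.14 to 0.55). Sox17, a factor of arterial endothelium, read 5.60, 5.57 and 5.64 in Flox and 5.60, 5.78 and 5.51 in Tead1KO, with a difference of 0.03. Erg, the Ets factor whose promoter holds the TEAD letters, read 6.11, 5.87 and 5.87 in Flox and 5.92, 5.90 and 5.72 in Tead1KO. Its groups overlap, with a difference of -0.11 (interval -0.46 to 0.25), and its dimmer probe set differed by 0.16. Sox7 lay at the background in both groups, where a fall could hardly be seen.

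Genes of the capillary wall did not pass the test, and the precision differed widely between them. Plvap, which forms the diaphragms of endothelial fenestrae, read 11.95, 11.96 and 11.93 in Flox and 11.94, 11.95 and 12.08 in Tead1KO. This was the narrowest spread of the 34 genes, with a difference of 0.04 (SE 0.11, interval -0.22 to 0.31). Gpihbp1, which carries lipoprotein lipase to the capillary lumen, read 8.63, 8.39 and 8.35 in Flox and 8.81, 8.63 and 7.99 in Tead1KO, a difference of 0.02. Emcn, a sialomucin of capillaries and veins, read 7.90, 8.69 and 8.89 in Flox and 8.49, 8.82 and 7.68 in Tead1KO. The lowest Flox and the lowest Tead1KO array of Emcn each lay over 0.5 log2 units below the rest of the group, so its interval was wide (-0.97 to 0.64).

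Mmrn2, a matrix glycoprotein of the endothelium, had the largest SD of the 34 genes in Flox. It read 10.49, 9.01 and 9.93 in Flox and 9.98, 8.95 and 9.96 in Tead1KO, and replicate 2 was the lowest of both groups. Its further probe sets also had their lowest Flox value in replicate 2: the second read 7.64, 7.16 and 7.74, the third 7.25, 7.13 and 7.17, and the fourth 7.62, 6.40 and 7.30. In Tead1KO the third was lowest in replicate 3 instead (6.24). The 4 Mmrn2 probe sets differed by -0.18, -0.30, -0.33 and -0.58, and none passed over all probe sets (limma adjusted p between 0.843 and 0.924).

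Among the vasoactive genes, Ramp2 had the largest difference of the 34. Ramp2 is the membrane partner that makes Calcrl a receptor for adrenomedullin, a vasodilator peptide. It read 8.05, 8.41 and 8.27 in Flox and 7.73, 8.00 and 6.44 in Tead1KO. The Tead1KO arrays all lay below the Flox arrays, replicate 2 narrowly, replicate 1 by more and replicate 3 by far. The difference was -0.85 (SE 0.38, interval -1.72 to 0.02, unadjusted p = 0.0537, limma adjusted p = 0.672). It was -0.38 without Tead1KO replicate 3 and -1.15 without Tead1KO replicate 2, so the size of this difference depends on which array is left out. Once hybridization control signal, which varies over all arrays, entered the fit, the difference was -0.35. Calcrl read 5.47, 5.17 and 5.15 in Flox and 5.36, 5.45 and 5.60 in Tead1KO. It differed the other way by 0.21 (interval -0.16 to 0.57), with overlapping groups.

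The other vasoactive genes lay within the spread of the arrays. Nos3, the endothelial nitric oxide synthase, read 6.69, 7.09 and 6.99 in Flox and 6.78, 7.10 and 6.85 in Tead1KO, a difference of -0.01 (interval -0.42 to 0.40). Ece1, which cuts the endothelin precursor to its active form, read 11.99, 11.46 and 11.52 in Flox and 11.86, 11.63 and 12.00 in Tead1KO. Its brightest probe set differed by 0.17 and a dimmer one, above background, by -0.40, so its probe sets disagree in direction. Ednrb, an endothelin receptor, differed by -0.17 (interval -0.65 to 0.32). Aplnr, the apelin receptor, read 5.71, 5.80 and 5.42 in Flox and 5.55, 5.96 and 5.66 in Tead1KO, a difference of 0.08.

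The secreted products included the other gene whose Tead1KO arrays all lay below its Flox arrays. Angpt2, an angiopoietin released by activated endothelium that can oppose Tek signalling, read 6.77, 6.93 and 6.88 in Flox and 6.75, 6.34 and 6.38 in Tead1KO. Replicate 1 of Tead1KO lay just below the lowest Flox array, and replicates 2 and 3 clearly below. The difference was -0.37 (SE 0.17, interval -0.76 to 0.03, unadjusted p = 0.0645, limma adjusted p = 0.691), and it ran from -0.50 to -0.29 when 1 array was left out in turn. The second Angpt2 probe set lay within the background in both groups. Vwf, the clotting factor stored in endothelial granules, lay near the background. It read 5.54, 4.76 and 4.93 in Flox and 4.80, 4.99 and 4.63 in Tead1KO. Its difference of -0.27 (interval -0.77 to 0.24) was -0.04 without Flox replicate 1, the 1 high array.

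Products linked to sprouting vessels were not separated between the groups. Apln, the apelin precursor of tip cells, read 6.98, 6.81 and 6.86 in Flox and 6.97, 6.63 and 7.26 in Tead1KO. Both the highest and the lowest of its 6 values were in Tead1KO arrays (difference 0.07, interval -0.37 to 0.52). Esm1, a proteoglycan of tip cells, read 5.47, 5.63 and 5.52 in Flox and 5.21, 5.90 and 5.64 in Tead1KO, again with both extremes in Tead1KO. Egfl7, a secreted factor of endothelial cells, was read by 4 probe sets that differed by -0.07, 0.04, 0.01 and 0.06.

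In total 16 of the 34 genes had further probe sets, 28 in all, and 19 of these were above background in at least 1 group. Of the 28, 0 had a limma adjusted p under 0.05 over all probe sets and 0 had an unadjusted p under 0.05. Those above background differed by -0.58 to 0.59, and 11 of the 19 had the sign of the brightest probe set.

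Across the 34 genes, Tead1KO replicate 3 read lower on average than the other arrays. The mean deviation of the 34 from the Flox mean was 0.03, -0.03 and 0.00 in Flox replicates 1 to 3. In Tead1KO it was -0.03, 0.03 and -0.26. Over all genes it was 0.01, 0.02 and -0.10 in Tead1KO replicates 1 to 3, and over the 14011 genes above background in both groups -0.03, 0.04 and -0.20. Without Ramp2, the gene of the 34 that deviated most there, the mean of the other 33 in replicate 3 was -0.21. The comparison genes were not trimmed in this way. With Ramp2 kept, the median deviation in replicate 3 was -0.12 over the 34, -0.05 over all genes and -0.17 over those above background. Tead1KO replicate 3 was the lowest of the 6 arrays for 15 of the 34 genes (44.1%), as it was for 37.8% of all genes and for 46.0% of those above background. It lay below every Flox array for 16 of the 34 and above every Flox array for 7, where 43.8% of all genes lay below and 34.2% above. Tead1KO replicate 1 was below every Flox array for 6 and above for 6 (29.2% and 32.4% of all genes), and replicate 2 below for 7 and above for 11 (27.9% and 28.0% of all genes). Without replicate 3 the median difference of the 34 was 0.02. The part of that array's quality in these values was not tested.

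**Figure D3:**
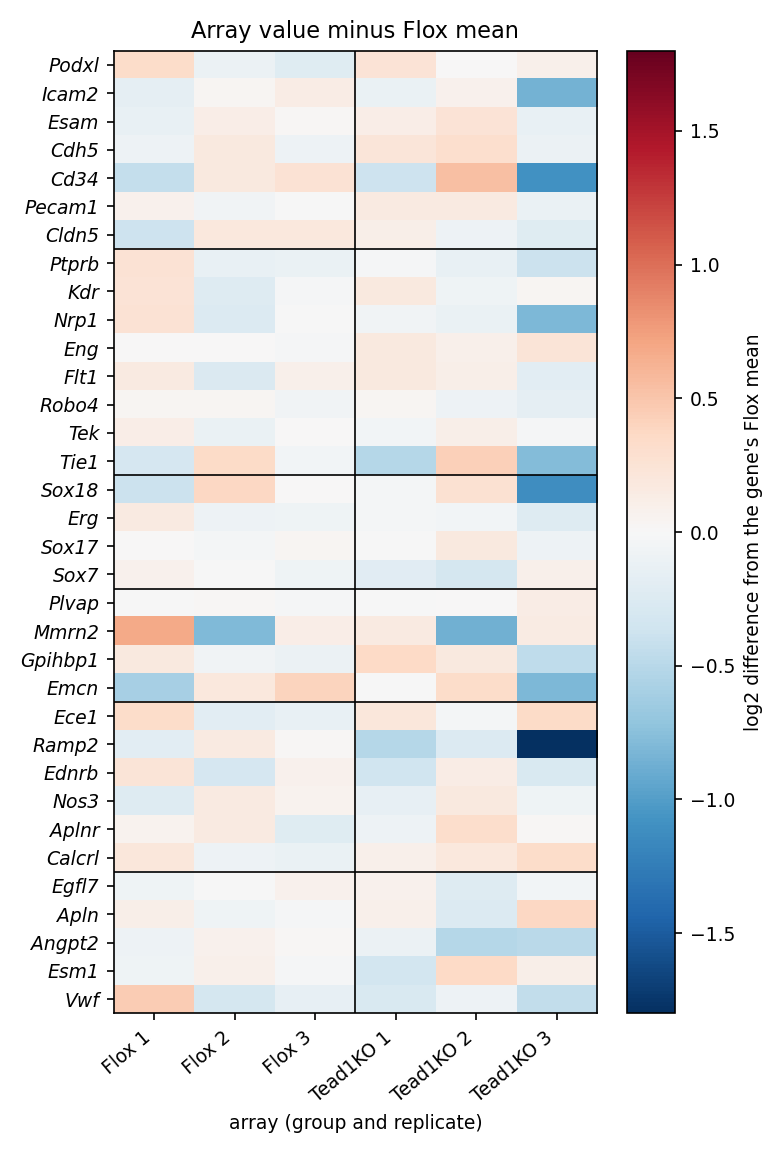
Each row is an endothelial gene, ordered as in the plot of signals, and each column an array; colour gives the array's log2 signal minus the gene's Flox mean (blue lower, red higher). Blue cells gather in Tead1KO replicate 3, above all in Ramp2, Sox18 and Cd34, while Tead1KO replicates 1 and 2 hold both colours.

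The median spread within groups, pooled over both, was close to that over all genes, while the acinar genes varied more. Summed on the linear scale, the 8 acinar genes gave a log2 signal of 15.4 to 17.4 in Flox and 15.5 to 17.3 in Tead1KO. The median SD pooled over both groups was 0.21 log2 units over the 34 endothelial genes, 0.22 over all genes and 1.08 over the acinar genes. By group, the median SD of the 34 was 0.18 in Flox, against 0.14 over all genes. In Tead1KO it was 0.19, against 0.26 over all genes. The SD was larger in Tead1KO than in Flox for 21 of the 34 genes (61.8%) and for 76.2% of all genes.

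Further endothelial genes gave no call either. Of 31 measured of 33 listed, such as transcription factors, surface receptors and selectins of endothelium, 0 changed over all genes and 0 had an unadjusted limma p under 0.05, with a median difference of -0.03. Those with the smallest p among genes above background were Rasip1, a GTPase effector needed for vessel lumens (-0.27), Lmo2, a cofactor of endothelial and blood development (-0.51), Cd93, a surface glycoprotein of endothelium (-0.27), and Clec14a, a lectin of endothelium (0.25). Lmo2 read 7.51, 8.06 and 7.96 in Flox and 7.48, 7.84 and 6.70 in Tead1KO. As with Ramp2, Tead1KO replicate 3 was its lowest array, and without it the Lmo2 difference was -0.18. The Cd93 difference was 0.043 with the mean of its probe sets, so its direction depends on the probe set.

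Partners of the 34 genes in vascular signalling included larger differences, also without a call. Of 29 measured of 30 listed ligands, receptors and Notch components, 0 changed over all genes and 7 (24.1%) had an unadjusted limma p under 0.05, where 7.41% of all genes had. This list was chosen with earlier results of these data known, so shares over it are descriptions only. The median difference was 0.11. Vegfa, the ligand of Kdr and Flt1, read 9.66, 9.94 and 10.00 in Flox and 9.58, 10.02 and 9.82 in Tead1KO, a difference of -0.06 (interval -0.47 to 0.34). Pgf, a ligand of Flt1, read 8.48, 8.36 and 8.58 in Flox and 8.12, 7.94 and 7.68 in Tead1KO. The groups are separate (difference -0.56, SE 0.17, limma adjusted p = 0.399). Angpt1, the activating ligand of Tek, lay around the background in both groups.

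Sema3a, Notch1 and Angptl4, the partners with the smallest unadjusted p, were separate and higher in Tead1KO. Sema3a, a semaphorin that binds Nrp1, read 6.33, 6.08 and 6.19 in Flox and 7.23, 7.01 and 6.92 in Tead1KO (difference 0.85, SE 0.16, limma adjusted p = 0.101). With the mean of its probe sets the Sema3a difference was 0.30 (limma adjusted p = 0.457). Notch1, the receptor for Dll4 in vessels and present in other cells too, read 9.02, 8.79 and 8.74 in Flox and 9.72, 9.76 and 9.25 in Tead1KO. Its difference was 0.72 (SE 0.19, limma adjusted p = 0.262), and it passed without Tead1KO replicate 3 (adjusted p = 0.0435). Angptl4, an inhibitor of lipoprotein lipase, read 6.06, 6.34 and 6.26 in Flox and 7.04, 6.78 and 6.69 in Tead1KO (difference 0.62, SE 0.17, limma adjusted p = 0.300). That probe set is of the _s_at type, which can read transcripts of more than 1 gene. Without such probe sets the Angptl4 difference was 0.058 (limma adjusted p = 0.887), and with the mean of its probe sets 0.34. Dll4 was separate and lower: 6.05, 6.05 and 5.92 in Flox and 5.62, 5.61 and 5.30 in Tead1KO. Its difference was -0.49 (SE 0.16, limma adjusted p = 0.414). Of the 29 partners, 8 were separate (27.6%, against 13.1% of all genes), 6 higher and 2 lower. Adm, also at an unadjusted limma p under 0.05, lay within the background in both groups.

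**Figure D4:**
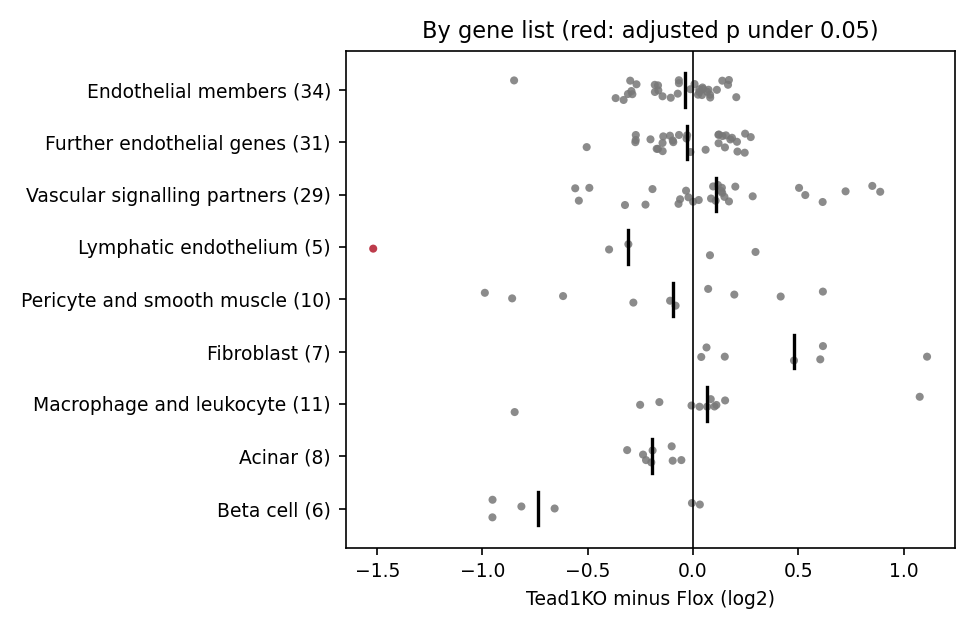
Log2 difference, Tead1KO minus Flox (x axis), of each measured gene in 9 lists, with the number of genes in brackets; black bars are medians, red marks a limma adjusted p under 0.05 and the vertical scatter within a list carries no value. The endothelial genes lie close to 0 apart from Ramp2 (-0.85), and the 1 red point is Lyve1 (-1.52).

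Markers of neighbouring cell types were read beside these genes. Of 5 lymphatic endothelial markers, 1 was called, where 0.517% of all genes were. The gene that fell was Lyve1, a hyaluronan receptor of lymphatic vessels that tissue macrophages also carry. It read 6.26, 6.87 and 6.71 in Flox and 4.71, 5.42 and 5.16 in Tead1KO, with all Tead1KO arrays lower (log2 difference -1.52, SE 0.24, limma adjusted p = 0.0468). Leaving out any 1 Flox array ended the call (adjusted p = 0.106, 0.250 and 0.277 for replicates 1 to 3), as did leaving out Tead1KO replicate 1 (0.221). It was also lost with median centring (0.0589) and with the mean of its probe sets (difference -0.92, adjusted p = 0.115). The Lyve1 call held with quantile normalization (limma adjusted p = 0.0298), the replicate block (0.00984) and the hybridization controls (0.0252). It also held without Tead1KO replicate 2 (0.0236) or replicate 3 (0.0484). With 1 array left out in turn, the Lyve1 difference ran from -1.70 to -1.33. Flt4, the lymphatic VEGF receptor, read 7.56, 7.33 and 7.49 in Flox and 6.97, 7.47 and 7.02 in Tead1KO, a difference of -0.31 with overlapping groups (interval -0.74 to 0.13). With the mean of its probe sets the Flt4 difference was -0.055. Of the 5 markers, 2 lay above 0, Prox1 (0.30) and Pdpn (0.08), and 3 below, with Reln at -0.40. The groups overlapped for Prox1, Pdpn and Reln.

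Over all genes, 0.517% were called and 7.41% had an unadjusted limma p under 0.05, the shares to set beside each count of cell type markers here. These lists were chosen with earlier results of these data known, so the counts are descriptions only. Of 10 pericyte and smooth muscle markers 0 changed and 4 had an unadjusted limma p under 0.05, with differences from -0.99 to 0.62. Acta2, the actin of smooth muscle, differed by -0.99 (limma adjusted p = 0.294), but by 0.15 without _s_at probe sets. Myh11, the myosin of smooth muscle, differed by -0.86 (limma adjusted p = 0.169; 0.0423 without Tead1KO replicate 2) and by -0.45 with the mean of its probe sets. Rgs5, a pericyte regulator of G protein signals, differed by -0.62 (-0.37 without Tead1KO replicate 3), and Kcnj8, a potassium channel of pericytes, by 0.62. All 7 fibroblast markers lay above 0 (median 0.48), with 0 called and 3 at an unadjusted p under 0.05. These were Dcn, a matrix proteoglycan (1.11, limma adjusted p = 0.20), Col1a2, a collagen chain (0.62), and Dpt, a matrix protein (0.60). Dcn passed with quantile normalization (adjusted p = 0.0454) and with the hybridization controls (0.00648), while with the mean of a gene's probe sets Dcn differed by 0.51 and Col1a2 by 0.26. Of 11 macrophage and leukocyte markers 0 changed, with 2 at an unadjusted p under 0.05. Cd79a, a B cell receptor subunit, differed by -0.85 (limma adjusted p = 0.0725; 0.0424 in the fit on means of probe sets), and C1qa, a complement subunit of macrophages, by 1.08 (0.518), which passed with the hybridization controls (difference 1.65, adjusted p = 0.000678). The C1qa groups overlapped, and the other C1q subunits C1qb and C1qc differed by 0.08 and 0.03. Of the 11 markers, 7 lay above 0 and 4 below (median 0.07). Of 6 beta cell markers 0 changed, and 4 had an unadjusted p under 0.05: Ucn3 (-0.95, limma adjusted p = 0.0560), Nkx6-1 (-0.95, 0.0637), Slc2a2 (-0.82, 0.194) and Pdx1 (-0.66, 0.541; difference -0.43 without Tead1KO replicate 3). The remaining beta cell markers, Ins2 and Iapp, differed by -0.005 and 0.03, with overlapping groups. Ucn3, Nkx6-1 and Slc2a2 passed with quantile normalization (limma adjusted p = 0.0125, 0.0298 and 0.0429), with the hybridization controls and without Tead1KO replicate 2. None of them passed with median centring, with any 1 Flox array left out, or without Tead1KO replicate 1 or 3. Summed on the linear scale, fibroblast markers read 10.5 to 10.9 in Flox and 10.8 to 11.4 in Tead1KO, and pericyte markers 11.3 to 11.6 and 10.7 to 11.2 (log2). Such a sum follows its brightest probe sets, among the pericyte markers above all Rgs5. Of these 10 pericyte and smooth muscle markers, 4 lay above 0 and 6 below. The part of these cells in the values of shared genes such as Nrp1 and Notch1 was not tested.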

How the data were processed

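The authors deposited log2 probe set signals of 6 Affymetrix arrays, for which the submitters' processing notes name Affymetrix Expression Console. No source used here gives its version, its normalization method or a genome build. The log2 scale was read from the values (2.75 to 15.7, none below 0), which vary in level between genes, so genes were not centred. Array medians over probe sets were 5.17 to 5.37, and whether the arrays had been brought to a common distribution stays unknown.

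Of 45101 probe sets, 64 controls were left out. Of the rest, 34945 carried 1 gene symbol in the platform annotation, 932 several and 9160 none. The brightest single-symbol probe set over the 6 arrays stood for each gene (18193 genes), with no filter or pseudocount. Probe sets of Ramp2 that also name a second gene were not used. Groups were compared with limma 3.58.1 in R 4.3.3 (lmFit, eBayes with trend), without covariates, with Benjamini-Hochberg adjustment over all genes at a threshold of 0.05, and intervals from the moderated fit. The procedure was tested on simulated data. These gave both groups the same spread and held no deviating array, so they do not cover an array such as Tead1KO replicate 3. The number of arrays limits the precision.

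The 34 genes, the gene lists and the tests were chosen with earlier results of these data known. Named were all 34 genes, with values per array for those at an unadjusted p under 0.05, a difference of at least 0.5, separate groups, or a defining role, and from each list up to 4 genes of smallest p above background (of the cell type lists, those at an unadjusted p under 0.05) plus Vegfa, Angpt1 and Flt4. Further genes were named, or given values per array, after their values were seen. Lists of duct, nerve, beta and other endocrine markers were read as well: of their 20 measured genes 0 were called, and the beta cell list had a median difference of -0.74.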

Additional observations from a re-analysis of the deposited data

How the results depend on the processing

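The count of called endothelial genes was 0 under every alternative tried: quantile normalization, median centring, dim genes left out, no variance trend, a robust prior, the mean of a gene's probe sets, no _x_at or _s_at probe sets, the replicate block, the hybridization controls as a covariate, a threshold of 0.1, and each array left out in turn. Their lowest limma adjusted p over these was 0.124 (Ramp2 without Tead1KO replicate 2, difference -1.15). Their median difference ran from -0.10 (median centring) to 0.02 (hybridization controls), and from -0.09 to 0.02 with 1 array left out. The count over all genes, 94, was 151 with quantile normalization, 58 with median centring and 242 with the hybridization controls. It was 20, 18 and 17 without Flox replicates 1 to 3 and 12, 303 and 177 without Tead1KO replicates 1 to 3. Of the signalling partners, 1 passed with quantile normalization and 0 to 1 with an array left out, Notch1 both times (without Tead1KO replicate 3 in the latter).

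No paired animals are named. The deviations of same-numbered arrays correlated at 0.06, 0.30 and -0.17 over genes, 3 of the 6 arrays correlated best with their own number, and the replicate block gave 97 called genes and 0 of the 34.

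Of the 34 genes, 10 kept their sign in all 16 alternatives and 24 did not. The largest main difference among the 24 was 0.31 in size, and none was called under any alternative. The cause was not tested. With quantile normalization the sign turned for Pecam1 (-0.00024), Robo4 (0.039), Sox17 (-0.035), Egfl7 (0.066), Nos3 (0.055), Esm1 (-0.022) and the partner Vegfa (0.074). With median centring it turned for Kdr (-0.014), Flt1 (-0.032), Tek (-0.054), Plvap (-0.019), Sox17 (-0.032), Gpihbp1 (-0.038) and Esm1 (-0.016). With the mean of a gene's probe sets it turned for Flt1 (-0.084), Erg (0.030), Sox17 (-0.0069), Egfl7 (0.013), Ece1 (-0.014) and the further endothelial gene Cd93 (0.043). Without _x_at and _s_at probe sets it turned for Acta2 (0.15). With the hybridization controls it turned for Kdr (-0.042), Tie1 (0.14), Emcn (0.34), Cd34 (0.29), Sox18 (0.21), Nos3 (0.12), Cldn5 (0.073), Icam2 (0.020), Ece1 (-0.029), Podxl (-0.0047), Apln (-0.14) and Vegfa (0.059). With 1 array left out, the sign turned for these genes. Differences ran for Mmrn2 from -0.58 to 0.16, Kdr from -0.065 to 0.17, Flt1 from -0.10 to 0.14 and Tek from -0.054 to 0.066. Differences ran for Nos3 from -0.13 to 0.072, Cldn5 from -0.25 to 0.026, Gpihbp1 from -0.14 to 0.27 and Emcn from -0.46 to 0.16. Differences ran for Aplnr from -0.039 to 0.17, Vegfa from -0.17 to 0.052, Esam from -0.0026 to 0.19 and Sox17 from -0.045 to 0.090. Differences ran for Egfl7 from -0.14 to 0.012, Esm1 from -0.11 to 0.23, Plvap from -0.0030 to 0.068 and Cd34 from -0.73 to 0.082. Differences ran for Sox18 from -0.58 to 0.12 and Apln from -0.078 to 0.23.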
